A study of Mus musculus with 12 samples.

Results

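The genes of cholesterol synthesis and uptake described here are 8 target genes of the transcription factor SREBP2, namely Hmgcs1, Idi1, Fdft1, Sqle, Lss, Cyp51, Insig1 and Srebf2 itself. Insig1 and Srebf2 encode regulators and the others enzymes of synthesis, while genes of uptake itself appear only in a separate list below. The 8 genes were taken by name from a list, not by a cut on their values. They are 8 of the 46103 genes left after features listed as numbered copies of a gene were summed. Their RNA was measured in 12 libraries of 100 sorted leukemia stem and progenitor cells each, 3 libraries in each of 4 groups. All cells came from a C57BL/6 mouse model of chronic myeloid leukemia (CML), in which bone marrow cells of 5FU-treated donors were infected with a retrovirus carrying BCR-ABL1 and GFP and then transplanted into lethally irradiated young adult wild-type females. The donors of all groups carried the G0 marker (G0M), a fusion of mVenus with a p27 mutant that cannot inhibit cyclin-dependent kinases, expressed from the Rosa26 allele after recombination by Vav1-Cre in blood cells. DP cells were G0M+ CD27+ and SP cells were G0M- CD27+, both within the BCR-ABL1+ lineage-negative Sca1+ c-Kit+ (LSK) fraction of bone marrow and spleen, and both came from vehicle-treated mice. IMDP and IMSP cells were the same populations from mice that received imatinib, an inhibitor of the ABL1 kinase, once a day by oral gavage. The disease was driven by a retrovirus rather than by the patient translocation, the recipients also received normal bone marrow cells, and the sources used here do not say whether the 3 libraries of a group came from separate mice, so the p values below measure the spread between these libraries, which may be technical.

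Cells make cholesterol from acetyl-CoA, first along the mevalonate pathway to farnesyl diphosphate, then through squalene and lanosterol. When sterols in the endoplasmic reticulum are low, the escort protein SCAP carries SREBP2 to the Golgi, where a pair of proteases frees the part that enters the nucleus and switches on genes of sterol synthesis and uptake, Insig1 and Srebf2. When sterols are high, INSIG proteins hold SCAP and SREBP2 back. Dividing blood cells need sterols for new membranes and isoprenoids for anchoring signaling proteins such as RAS.

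SREBP2 acts through sterol regulatory elements in promoters, often beside a CCAAT box bound by NF-Y. RefSeq promoters of build GRCm38.p6, from 250 bases before to 50 bases after the start site, were at hand for 6 of the 8 genes (Hmgcs1, Idi1, Lss, Cyp51, Insig1 and Srebf2). The promoters of the 3 genes below are shown because Hmgcs1 and Insig1 differed most between imatinib and vehicle among the 8 and because Srebf2 encodes the factor itself. Each is written 5′ to 3′ on the strand of the gene, and capitals mark TCACCCCA, letters of the sterol regulatory element, and CCAAT or its reverse complement ATTGG. They lie at chr13:119690101-119690400 (plus strand) for Hmgcs1, chr5:28071162-28071461 (plus strand) for Insig1 and chr15:82147019-82147318 (plus strand) for Srebf2.
Hmgcs1: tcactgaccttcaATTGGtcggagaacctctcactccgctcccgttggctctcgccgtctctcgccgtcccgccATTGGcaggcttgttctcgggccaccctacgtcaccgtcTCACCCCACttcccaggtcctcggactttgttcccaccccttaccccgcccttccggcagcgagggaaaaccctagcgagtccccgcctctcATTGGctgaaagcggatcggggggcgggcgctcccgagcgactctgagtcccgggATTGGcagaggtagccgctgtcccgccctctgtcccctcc
Insig1: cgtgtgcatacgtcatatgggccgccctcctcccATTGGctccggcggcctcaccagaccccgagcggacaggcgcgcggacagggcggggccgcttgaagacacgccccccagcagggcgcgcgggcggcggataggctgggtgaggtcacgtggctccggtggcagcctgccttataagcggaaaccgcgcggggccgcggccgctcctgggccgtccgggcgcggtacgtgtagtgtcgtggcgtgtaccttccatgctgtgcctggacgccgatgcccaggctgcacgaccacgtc
Srebf2: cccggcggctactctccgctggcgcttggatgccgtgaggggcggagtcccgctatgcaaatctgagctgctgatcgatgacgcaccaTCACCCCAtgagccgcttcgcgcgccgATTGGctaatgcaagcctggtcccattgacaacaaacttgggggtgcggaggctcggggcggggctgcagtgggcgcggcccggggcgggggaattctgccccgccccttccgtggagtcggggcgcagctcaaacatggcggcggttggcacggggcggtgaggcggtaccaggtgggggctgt
On both strands, TCACCCCA was found in 2 of the 6 promoters, starting 137 bases before the start site of Hmgcs1 and 162 bases before that of Srebf2, and in 1.56% of all 32851 promoters of the same length. In Hmgcs1 the match extends to the 9 letters TCACCCCAC, which 0.551% of all promoters hold. CCAAT was found in all 6, against 37.4% of all promoters, with 4 copies in Hmgcs1. The letters were picked after these promoters had been read, so the shares are descriptions, and the absence of a match in the other promoters says only that these letters are not in the window.

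The cells matched their labels on the sort genes. Kit and Ly6a, which encode c-Kit and Sca1, were read in every library, at 16.8 to 39.8 RPKM and 3.12 to 20.8 RPKM, and so was Cd27, at 12.2 to 21.4 RPKM (RPKM is reads scaled by transcript length and by the read total of the library). The proliferation gene Mki67 was lower in all 6 G0M+ libraries, at 7.18 to 21.2 RPKM, than in the 6 G0M- libraries, at 50.8 to 70.6 RPKM. The libraries rested on totals of 11.4 to 20.6 M reads. The imatinib libraries carry the library numbers 1 to 6 and the vehicle libraries 7 to 12, so treatment and any library batch cannot be told apart. In bulk samples, fewer cells of a type and less RNA per cell cannot be told apart either. The sum of RPKM over all listed features was lowest in the IMDP libraries, at 82832 to 103547, against 105253 to 133620 in the other 9 libraries.

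The levels of the 8 genes were modest and spanned a wide range per kb of transcript. The highest mean over the 12 libraries was that of Srebf2 (10.9 ± 1.98 RPKM, SD, n = 12), followed by Insig1 (6.47 ± 1.73), which encodes the retention protein, and by the enzymes Sqle (6.16 ± 1.14) and Hmgcs1 (5.92 ± 1.43). The means of these last 3 differed by less than their SD. Cyp51 (3.38 ± 0.68), Idi1 (2.52 ± 1.13) and Lss (1.84 ± 0.48) came next, and Fdft1 was lowest at 0.71 ± 0.24 RPKM. Idi1 varied most, with a coefficient of variation of 45.1%, against 18.2% for Srebf2. Between 52 reads (Fdft1) and 1223 reads (Srebf2) lay behind each value, as recovered from the step size of the RPKM values.

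Hmgcs1 encodes the cytosolic HMG-CoA synthase, an early enzyme of the mevalonate pathway. It stands on chromosome 13 (119690379 to 119708260, GRCm38, plus strand). Its levels were 4.95, 4.59 and 4.43 RPKM in the DP libraries, 5.47, 4.92 and 4.22 in SP, 8.09, 5.17 and 7.51 in IMDP and 6.70, 7.75 and 7.20 in IMSP. Every imatinib library stood above every vehicle library of its own population, and 5 of the 6 imatinib libraries stood above all 6 vehicle libraries, the exception being IMDP replicate 2. DP and SP overlapped throughout, as did IMDP and IMSP. The mean was 7.07 ± 1.04 RPKM (SD, n = 6) with imatinib and 4.77 ± 0.45 RPKM with vehicle. The exons of Hmgcs1 share 557 bases with those of Gm48342 on the opposite strand, which was not among the listed features.

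Idi1 (chromosome 13, 8885501 to 8892451, plus strand) encodes the isomerase that turns isopentenyl diphosphate into the starter of the isoprenoid chain. Its levels were 2.34, 3.03 and 1.93 RPKM in DP, 1.56, 2.67 and 3.47 for SP, 1.84, 1.27 and 2.16 for IMDP and 1.45, 5.34 and 3.16 for IMSP. The 3 IMSP libraries alone spanned nearly the whole range of this gene, and no group stood clear of another. The exons of Idi1 share 323 bases with those of Gm48574 on the opposite strand, which was not listed either.

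Fdft1 (chromosome 14, 63145150 to 63179578, minus strand) encodes squalene synthase, the first step committed to sterols. It was read at 0.64, 0.56 and 0.91 RPKM in DP, 0.65, 0.44 and 0.57 for SP, 0.46, 0.74 and 1.10 for IMDP and 0.60, 1.18 and 0.70 for IMSP. It reached 1 RPKM in 2 libraries and did not pass the filter for testing, which asked for 3, so 7 of the 8 genes were tested. Its values imply a length of 8769 bases, against 4227 bases of exon in the GENCODE annotation, and its exons share 774 bases with those of Ctsb on the opposite strand, which was read at 7.59 to 16.1 RPKM. The counting is not stated to use strand, so the level of Fdft1 is uncertain.

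Sqle (chromosome 15, 59315077 to 59331192, plus strand) encodes squalene epoxidase, a second control point of the pathway. Its levels were 5.90, 5.28 and 5.14 RPKM in DP, 4.63, 6.59 and 4.86 for SP, 7.66, 5.23 and 7.71 for IMDP and 7.52, 7.07 and 6.37 for IMSP. 4 of the 6 imatinib libraries stood above every vehicle library, and all 6 stood above the vehicle median.

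Lss encodes lanosterol synthase, which closes the sterol rings, and lies on chromosome 10 (76531588 to 76557138, plus strand). It was read at 1.80, 2.43 and 1.61 RPKM in DP, 1.61, 1.40 and 1.80 for SP, 2.01, 1.67 and 2.80 for IMDP and 1.73, 2.26 and 0.99 for IMSP. Cyp51 (chromosome 5, 4081145 to 4104746, minus strand) encodes the lanosterol demethylase. Its levels were 3.75, 3.17 and 3.39 RPKM in DP, 3.28, 2.00 and 3.33 for SP, 4.87, 3.51 and 3.72 for IMDP and 2.68, 3.62 and 3.19 for IMSP. For both genes the mean was highest in IMDP and lowest in SP, while neighbours in the order of the groups differed by less than the larger of their SDs. The exons of Cyp51 share 166 bases with Akap9 on the opposite strand, which was read at 3.89 to 4.65 RPKM.

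The regulators had the highest means of the 8. Srebf2 (chromosome 15, 82147181 to 82205379, plus strand) was read at 7.67, 10.7 and 14.2 RPKM in DP, 10.7, 7.31 and 10.0 for SP, 12.7, 10.9 and 12.7 for IMDP and 12.2, 10.8 and 10.9 for IMSP. The 3 IMSP libraries lay above the 3 SP libraries, whereas DP replicate 3 was the highest of all 12. Insig1 (chromosome 5, 28071363 to 28078662, plus strand) was read at 4.41, 4.92 and 7.27 RPKM in DP, 6.04, 4.14 and 5.69 for SP, 9.53, 6.24 and 9.18 for IMDP and 7.33, 5.48 and 7.34 for IMSP. 4 of its 6 imatinib libraries stood above every vehicle library. IMDP replicate 2 was the lowest of its group for 7 of the 8 genes, Fdft1 being the exception, and was also the library with the smallest RPKM sum, and the treatment differences are also given without it below.

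**Figure D1:**
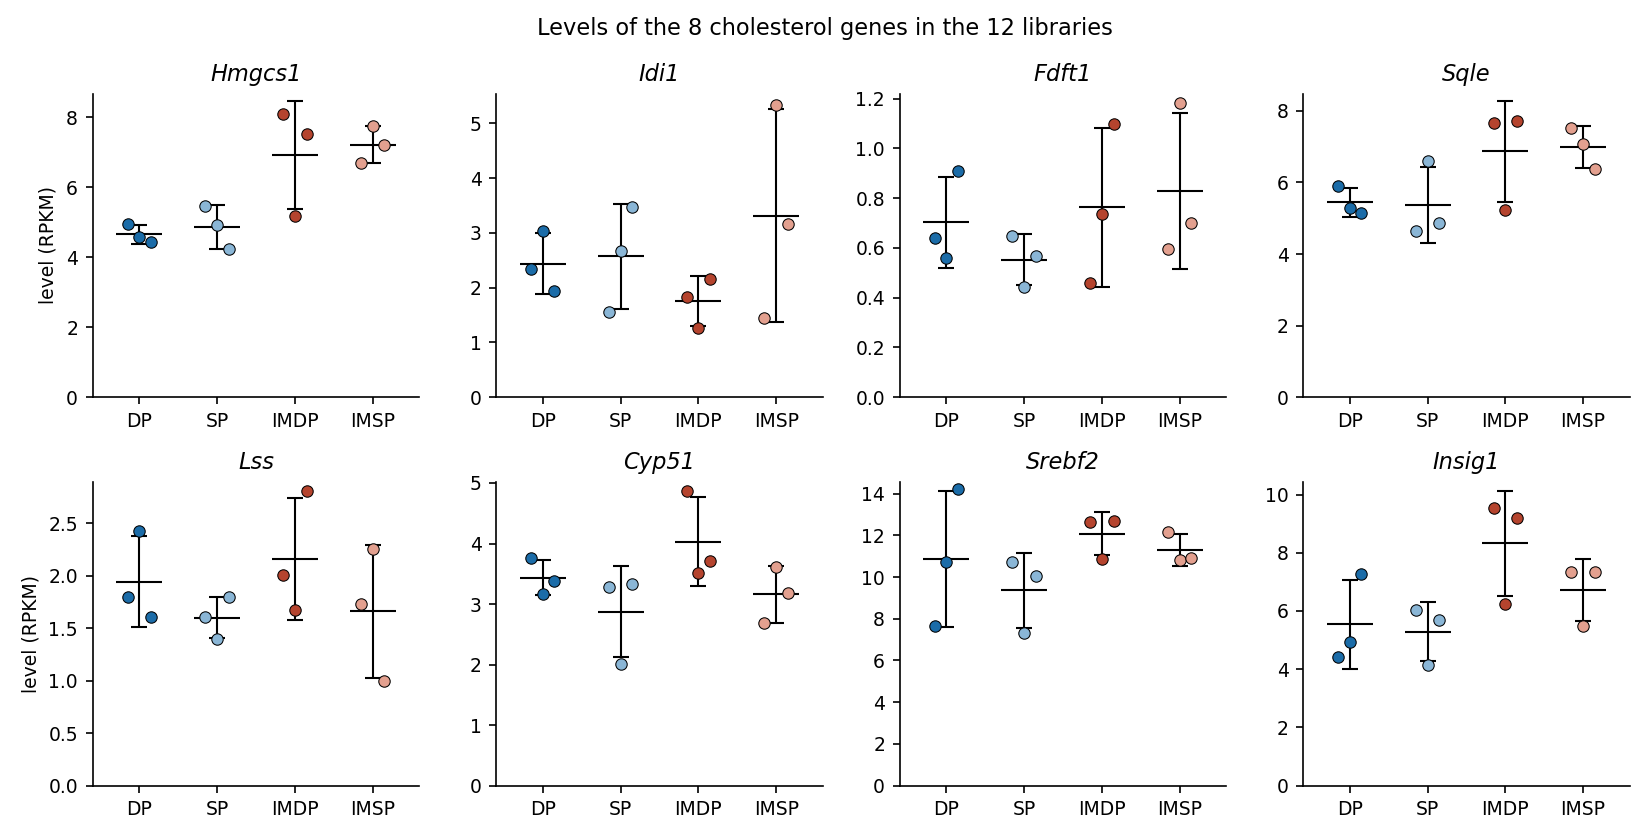
Level in RPKM (vertical axes, each from 0) of each of the 8 genes in the 4 groups (horizontal axes), with 1 point per library and bars for the mean ± SD (n = 3 per group). Hmgcs1 in IMDP and IMSP (5.17 to 8.09 RPKM) lies above its own vehicle group in every library. Idi1, Fdft1, Sqle, Lss, Cyp51 and Insig1 overlap between imatinib and vehicle within each population, and Srebf2 overlaps between IMDP and DP.

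The first comparison asked whether the quiescent G0M+ cells differ from the cycling G0M- cells in these genes. No difference passed the threshold. Limma was fitted on log2(RPKM + 0.1) to the 10072 genes with 1 RPKM or more in 3 or more libraries, fold changes are on that scale, and a gene was called at a Benjamini-Hochberg adjusted p under 0.05. In DP against SP cells 0 of the 7 tested genes were called, against 2.26% of all genes tested, and in IMDP against IMSP cells 0 of 7, against 25.6%. Averaged over treatments, the count was 0 of 7, against 26.3% of all genes. The number of the 7 with an unadjusted p under 0.05 was 0 in each of these 3 comparisons, against 13.2%, 39.7% and 41.4% of all genes. Limma-voom on the recovered reads also called 0 of 7 in each. In the same averaged comparison 7 of 10 proliferation genes were called lower in G0M+ cells, against 21.0% of all genes. The median log2 fold change of the 10 was -2.54, and 1 of them was above 0.

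The intervals show how large a population difference these data leave room for. For Hmgcs1 the averaged log2 fold change was -0.07 (95% interval -0.34 to 0.20), and for Sqle it was 0.00 (-0.28 to 0.28). Insig1 gave 0.17 (-0.19 to 0.53) and Srebf2 0.14 (-0.18 to 0.47). The sterol ring enzymes Cyp51 (0.31, -0.02 to 0.64, limma adjusted p = 0.138) and Lss (0.33, -0.12 to 0.78, limma adjusted p = 0.252) had the highest values, and Idi1 the lowest (-0.38, -1.02 to 0.26). Within vehicle the values ran from -0.06 (Hmgcs1, -0.44 to 0.32) to 0.28 (Cyp51, -0.18 to 0.74), and within imatinib from -0.73 (Idi1, -1.64 to 0.17) to 0.40 (Lss, -0.24 to 1.04). Leaving out 1 library moved Cyp51 within vehicle between 0.05 and 0.40, and Idi1 and Lss within imatinib between -1.21 and -0.31 and between 0.09 and 0.65.

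The scale matters here, because the median of all genes was itself -0.13 in the averaged comparison and -0.25 in IMDP against IMSP. Relative to that median, Cyp51 stood at 0.44, Lss at 0.46, Hmgcs1 at 0.06 and Sqle at 0.13. When libraries were scaled to the same median Cyp51 was called higher in G0M+ cells (log2 fold change 0.47, limma adjusted p = 0.0357), and when they were scaled to the same sum it was called as well (0.55, adjusted p = 0.028). Both scalings turned the sign of Hmgcs1 and Sqle to above 0 without a call. The share of calls over all genes that were higher in G0M+ cells moved from 20.2% to 47.5% and 62.5% under the same scalings.

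Neighbouring library numbers each hold 1 G0M+ and 1 G0M- library, and their deviations from the group means were correlated (r = 0.43 to 0.65 over all genes tested, 6 pairs). With these pairs as a block, 44.1% of all genes were called in IMDP against IMSP cells and 46.9% in the averaged comparison, and again 0 of the 7 genes were called in either. The lowest adjusted p was that of Insig1 in IMDP against IMSP (log2 fold change 0.29, limma adjusted p = 0.0864).

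The second comparison asked whether imatinib altered the genes. Among the 7, 6 had higher levels with imatinib when averaged over both populations and the median log2 fold change was 0.24, whereas 42.4% of all genes were above 0 and their median was -0.05. None was called, 0 of 7 against 0.854% of all genes, while 3 of the 7 (Hmgcs1, Insig1 and Sqle) had an unadjusted p under 0.05, as had 18.0% of all genes. Limma-voom called 0 of 7 as well. Hmgcs1 came closest, at a log2 fold change of 0.55 ± 0.12 (SE, 95% interval 0.28 to 0.82), which is 1.46-fold, with a limma adjusted p of 0.0574 and rank 128 of the 10072 genes by p. Insig1 followed with 0.47 ± 0.17 (limma adjusted p = 0.170), then Sqle with 0.35 ± 0.13 (adjusted p = 0.185). Srebf2 (0.24 ± 0.15), Cyp51 (0.19 ± 0.15), Lss (0.06 ± 0.21) and Idi1 (-0.11 ± 0.29) had intervals that include 0. Fdft1, fitted without the filter, gave 0.26 ± 0.26 (limma adjusted p = 0.677).

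The call on Hmgcs1 turned on the scaling and on 1 library. It passed when libraries were scaled to the same median (log2 fold change 0.58, limma adjusted p = 0.0317) or the same sum (0.68, adjusted p = 0.0193), and without IMDP replicate 2 (0.65, adjusted p = 0.0183). Over the 12 fits that each left out 1 library its log2 fold change lay between 0.49 and 0.65 and its adjusted p between 0.0183 and 0.146. Sqle was called only under the same sum (0.48, limma adjusted p = 0.0408). The sign of Idi1 turned to 0.01 under that scaling. Without IMDP replicate 2 the averaged differences of Insig1 and Sqle were 0.56 (limma adjusted p = 0.112) and 0.44 (adjusted p = 0.0854), Srebf2 gave 0.28, Cyp51 0.23, Lss 0.14 and Idi1 0.00.

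The treatment difference was also fitted to the means of the pairs of neighbouring library numbers, 3 imatinib against 3 vehicle pairs, an alternative chosen after seeing the data. The log2 fold changes are the same in that fit, but 0 genes of all 10072 were called, against 86 with the 12 libraries taken as independent, and 966 had an unadjusted p under 0.05. Hmgcs1 had a limma adjusted p of 0.377 (0.55 ± 0.13), Sqle of 0.520 (0.35 ± 0.15) and Insig1 of 0.525 (0.47 ± 0.21). The unadjusted p was under 0.05 for 2 of the 7 genes, Hmgcs1 and Sqle, and that of Insig1 rose to 0.055.

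**Figure D2:**
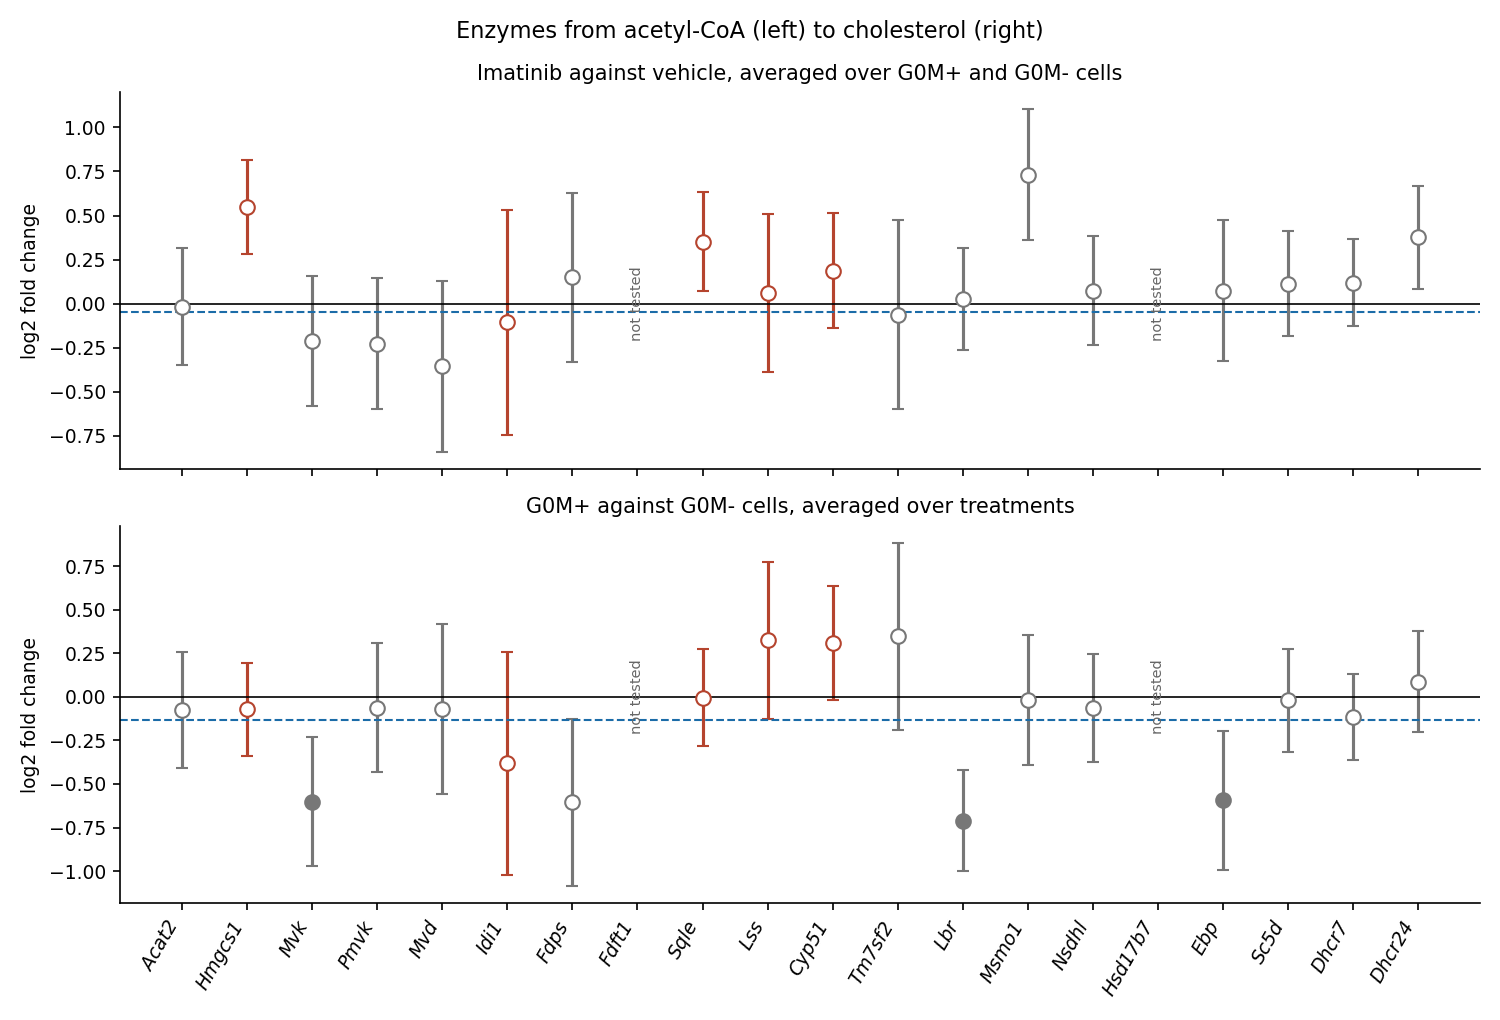
Log2 fold change on log2(RPKM + 0.1) (vertical axes) of enzymes from acetyl-CoA to cholesterol (horizontal axis) for imatinib against vehicle (top) and G0M+ against G0M- cells (bottom), with 95% intervals. Red marks genes of the 8 and grey the other enzymes, filled circles passed an adjusted p of 0.05, and the dashed line is the median of all genes tested (-0.05 top, -0.13 bottom). With imatinib Hmgcs1 (0.55), Sqle (0.35) and Msmo1 (0.73) stand above 0 while Mvk, Pmvk and Mvd stand below it with intervals that include 0.

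Within the populations the treatment difference of Hmgcs1 was alike in size. It was 0.54 (95% interval 0.16 to 0.92) in IMDP against DP and 0.56 (0.19 to 0.94) in IMSP against SP, and its interaction of population and treatment was -0.02 (-0.56 to 0.51). In IMDP against DP 0 of 7 genes were called, against 0.367% of all genes, and 2 of the 7 (Hmgcs1 and Insig1) had an unadjusted p under 0.05, as had 20.5% of all genes. In IMSP against SP 0 of 7 genes were called, against 0% of all genes, 1 of the 7 (Hmgcs1) had an unadjusted p under 0.05, as had 845 of all genes (8.39%), and limma-voom called 0 genes. The libraries of Hmgcs1 were all higher without overlap in both populations, which 1.36% of all genes were. In IMDP against DP alone 1 of 7 genes did so against 4.58% of all genes, and in IMSP against SP 2 of 7 (Hmgcs1 and Srebf2) against 11.1%.

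Insig1 gave 0.59 (0.08 to 1.10) in IMDP against DP and 0.34 (-0.17 to 0.85) in IMSP against SP. For Sqle the values were 0.31 (-0.09 to 0.71) and 0.39 (-0.01 to 0.79). Without IMDP replicate 2 the differences in IMDP against DP were 0.73 for Hmgcs1 (limma adjusted p = 0.092), 0.78 for Insig1 (adjusted p = 0.184) and 0.49 for Sqle (adjusted p = 0.223), and the interaction of Hmgcs1 was 0.17. Idi1 had opposite signs, -0.46 and 0.25, with an interaction of -0.70 (-1.98 to 0.57, limma adjusted p = 0.682). The interaction was called for 0 of 7 genes, against 0% of all genes, with 0 of the 7 and 937 of all genes at an unadjusted p under 0.05 and 0 genes called by limma-voom.

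**Figure D3:**
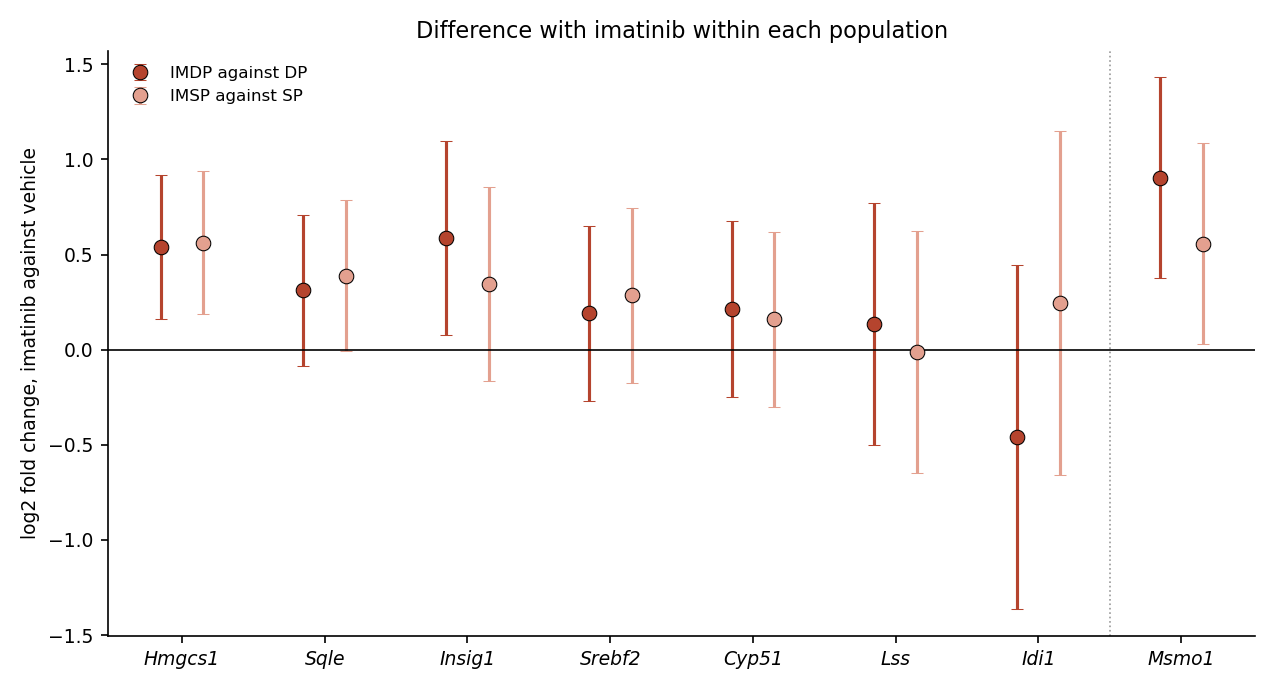
Log2 fold change of imatinib against vehicle (vertical axis) with 95% intervals for the 7 tested genes and, right of the dotted line, the sterol oxidase gene Msmo1, in G0M+ (dark) and G0M- cells (light). The intervals of Hmgcs1 and Msmo1 lie above 0 in both populations, and those of Idi1 span 0 in both.

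Other genes of the pathway were taken from lists, of whose 70 genes reported here 62 were tested. With imatinib 1 of the 62 was called (1.61%), against 0.854% of all genes tested. This was Syvn1, an ER ubiquitin ligase, which fell. Syvn1 was read at 6.03 to 12.9 RPKM in the 6 vehicle libraries and at 3.34 to 5.70 RPKM in the 6 imatinib libraries. It fell by 0.86 ± 0.16 (SE of the log2 fold change, limma adjusted p = 0.0367). This call was lost, with adjusted p up to 0.0971, in 8 of the 12 fits without 1 library, and on pair means (adjusted p = 0.377). Msmo1, a methylsterol oxidase downstream of Cyp51, stood at 1.65 to 2.70 RPKM with vehicle and at 2.95 to 5.79 RPKM with imatinib. Like Syvn1 it was named for the lowest p of its list. Msmo1 differed by 0.73 ± 0.17 (limma adjusted p = 0.0633). It was called under the same median (0.76, limma adjusted p = 0.0468), under the same sum (0.85, adjusted p = 0.0313) and without IMDP replicate 2 (0.85, adjusted p = 0.0345), but not on pair means (adjusted p = 0.395).

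Among the other mevalonate enzymes 0 of 5 were called with imatinib, 1 was above 0 and the median was -0.21, with Mvd, the decarboxylase, at -0.36 (limma adjusted p = 0.423). Among the other sterol enzymes 0 of 8 tested were called, 7 were above 0 and the median was 0.09. Of the genes for uptake and trafficking 0 of 11 were called. The VLDL receptor gene Vldlr gave 1.77 ± 0.47 (limma adjusted p = 0.088), from 0.11 to 1.72 RPKM with vehicle to 0.74 to 3.49 RPKM with imatinib. For efflux and storage the count was 0 of 7, with the efflux pump Abca1 at 1.10 ± 0.30 (limma adjusted p = 0.0894). In the isoprenoid branch 0 of 11 were called, the lowest p being that of the ubiquinone chain gene Pdss2 at -0.32 (limma adjusted p = 0.268). Among the SREBP1 fatty acid genes 0 of 11 were called, 9 were above 0 and the median was 0.23, the lowest p being that of the desaturase Scd2 at 0.39 (limma adjusted p = 0.195).

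In G0M+ against G0M- cells, averaged over treatments, 2 of the 62 tested list genes were called higher and 12 lower. Together these were 22.6% of the list genes, against 26.3% of all genes tested (5.32% higher and 21.0% lower), so the share of calls on the lists was near that of all genes and the values below describe single genes. Lower were Mvk, the mevalonate kinase (-0.60 ± 0.17, limma adjusted p = 0.0236), Lbr, a sterol reductase that also anchors chromatin to the nuclear lamina (-0.71 ± 0.13, adjusted p = 0.00378), and Ebp, the sterol isomerase (-0.59 ± 0.18, adjusted p = 0.0334). Among the SREBP processing genes the escort Scap (-0.41 ± 0.10, limma adjusted p = 0.0108) and Syvn1 (-0.46 ± 0.16, adjusted p = 0.0484) were lower, the latter below 0 in all 22 alternative fits and called in 7 of them. Of the trafficking genes Tmem97, a sterol-regulated membrane protein that binds NPC1, was lower at -1.26 ± 0.30 (limma adjusted p = 0.0122), as was the oxysterol-binding protein gene Osbp. The storage enzyme gene Soat1, which makes cholesterol esters, was lower (-0.80 ± 0.17, limma adjusted p = 0.00677), whereas the efflux pump Abcg1 was higher (0.64 ± 0.18, adjusted p = 0.0247). The prenyl branch genes Pdss1, Dhdds and Fntb and the lipogenesis gene Mid1ip1 were lower, and Lpin1, a phosphatidate phosphatase, was higher by 1.09 ± 0.19 (limma adjusted p = 0.00217).

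Those directions depended on the scaling in part. All 12 stayed below 0 when libraries were scaled to the same median or the same sum, but 6 and 3 of them, respectively, stayed called, while the calls higher in G0M+ cells went from 2 to 5 and 9. Lbr, Soat1 and Tmem97 were called lower under both scalings. The calls of Lbr, Scap, Soat1, Tmem97 and Lpin1 held in all 12 fits without 1 library. Those of the other 9 were lost in some of them: in 10 for Syvn1, 7 for Ebp, 7 for Fntb, 5 for Dhdds, 5 for Abcg1, 4 for Mid1ip1, 3 for Mvk, 3 for Osbp and 1 for Pdss1. Without the filter on low values Ebp (limma adjusted p = 0.0553), Fntb (0.0514) and Syvn1 (0.0738) were not called. Of the genes that were not called, Fdps, which makes farnesyl diphosphate, gave -0.61 ± 0.22 (limma adjusted p = 0.0600), Acat2 -0.08, Tm7sf2 0.35, Mbtps1 -0.13, Vldlr 1.06, Apoe 1.19 and Acss2 0.90, each with an adjusted p above 0.05. With the library-number pairs as a block the count of list genes called went from 14 to 31, and 46.9% of all genes were called. The calls then included Fdps (limma adjusted p = 0.000712), Apoe (0.000236), Acss2 (0.00593) and Vldlr (0.011).

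**Figure D4:**
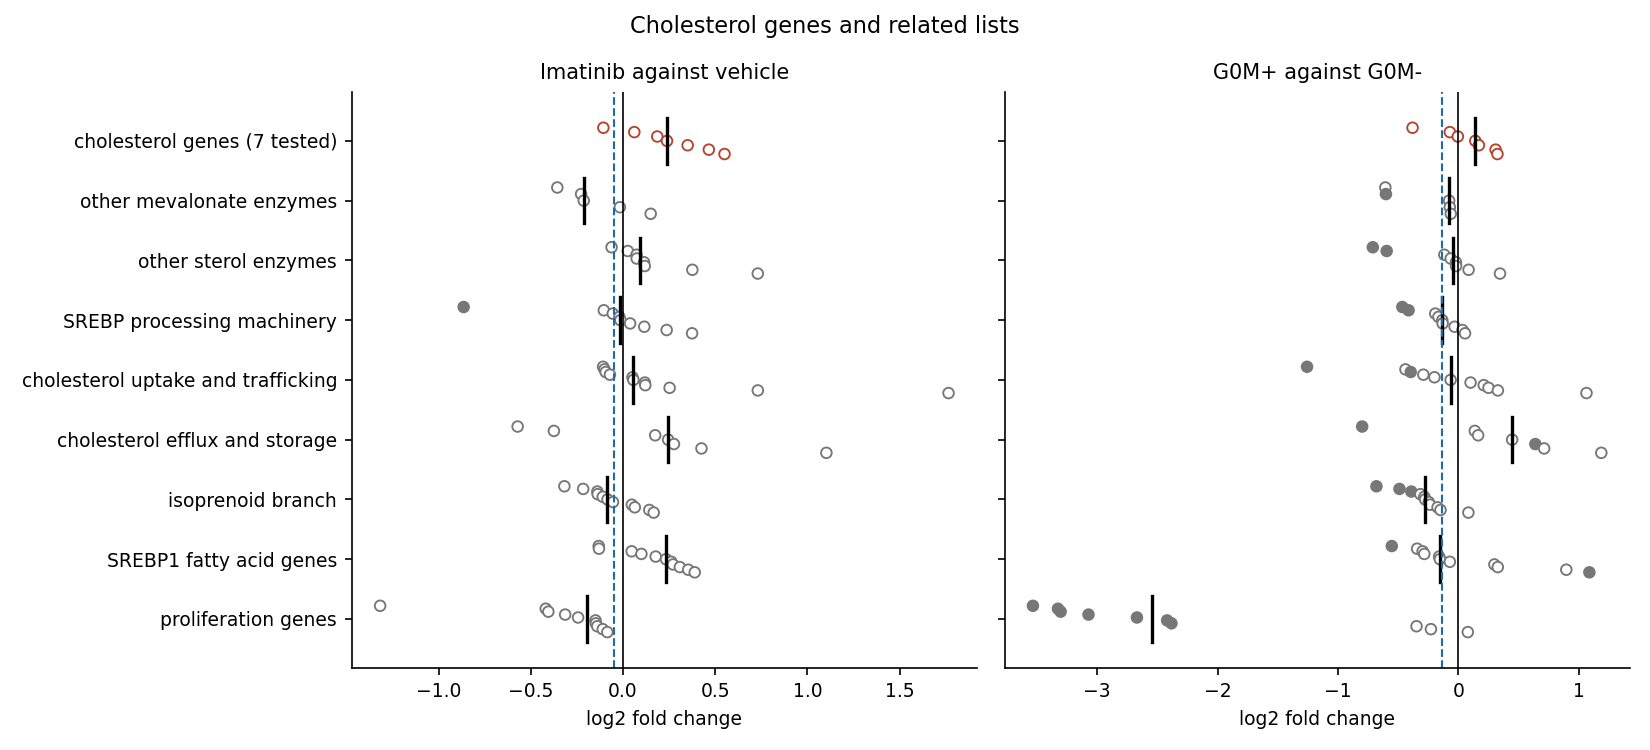
Log2 fold change (horizontal axes) of every tested gene of the cholesterol genes, of 7 related lists and of 10 proliferation genes, for imatinib against vehicle (left) and G0M+ against G0M- cells (right). Each circle is a gene, filled where its adjusted p was under 0.05, black bars are list medians and the dashed line is the median of all genes tested. The 7 cholesterol genes have a median of 0.24 with imatinib (range -0.11 to 0.55) and of 0.14 between populations (-0.38 to 0.33). The proliferation genes reach a median of -2.54 between populations.

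Markers of other cells were summed in each library, and their part in the results was not tested. The summed macrophage markers were higher in IMDP (18.7 to 21.8 RPKM over 10 genes) than in DP (6.36 to 17.1), without overlap, as were 4.58% of all genes tested. The sums stood at 3.80 to 8.84 RPKM in SP and 6.86 to 38.2 in IMSP. Of the 10 macrophage genes 5 (C1qa, C1qb, C1qc, Marco and Cd5l) were at 0 in all SP and IMSP libraries. Marco was at 0 in all DP and IMDP libraries as well. The 5 tested macrophage genes had a median log2 fold change of 0.74 in IMSP against SP, with 3 above 0 and a highest value of 2.46. In that comparison 2 of the 5 had an unadjusted p under 0.05, as had 8.39% of all genes. In IMDP against DP the median of the 5 was 0.83, with 5 above 0. Mast cell and basophil markers summed to 76.3 to 329 RPKM in DP and 14.9 to 194 in IMDP, against 10.5 to 23.0 in SP and 7.92 to 24.4 in IMSP. Cma1, Mcpt4, Tpsb2 and Tpsab1 were at 0 in SP and IMSP, and Tpsab1 was at 0 in DP and IMDP as well. The erythroid markers summed to 212 to 270 RPKM in DP, 56.6 to 153 for SP, 57.8 to 482 for IMDP and 10.1 to 77.0 for IMSP. The 7 tested erythroid genes had a median log2 fold change of -1.64 in IMDP against DP, with 0 above 0. In IMSP against SP their median was -1.19, with 1 above 0. Averaged over populations 0 of the 7 were called with imatinib, and 4 had an unadjusted p under 0.05, as had 18.0% of all genes. The neutrophil markers summed to 50.8 to 1169 RPKM in DP, 316 to 2190 for SP, 60.8 to 232 for IMDP and 419 to 1782 for IMSP, and the lymphoid markers to 25.1 to 265 RPKM over all libraries, with Ms4a1 at 0 throughout. The LSK genes summed to 82.4 to 100.4 RPKM in SP and to 116 to 128 in IMSP, without overlap. Of all genes tested, 11.1% were higher without overlap in IMSP against SP.

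The 7 tested genes differed in how closely they varied together. Over the 12 libraries the correlation of log2 values between pairs of the 7 tested genes had a median of 0.24, and 18 of the 21 pairs were above 0. These correlations share libraries, depth and treatment groups and are a description. The closest pairs were Insig1 with Srebf2 (r = 0.85) and Hmgcs1 with Sqle (0.81), and the most opposed was Insig1 with Idi1 (-0.36). The mean of the z-scored log2 values of the 7 genes was below 0 in all 6 vehicle libraries, from -0.95 (SP replicate 2) to -0.10 (DP replicate 3). It was above 0 in 5 of the 6 imatinib libraries, up to 0.97 (IMDP replicates 1 and 3), and -0.37 in IMDP replicate 2. The genes outside the lists whose log2 values followed this mean most closely over the 12 libraries were Vmp1 (r = 0.91), Slc35f2 (0.89), Zfp280d (0.89), Calhm2 (0.88) and Fam220a (0.88). Vmp1, an ER protein of autophagosome formation, stood at 13.4 ± 1.73 RPKM (SD, n = 3) in DP, 11.4 ± 2.47 for SP, 17.3 ± 3.93 for IMDP and 15.7 ± 2.36 for IMSP.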

How the data were processed

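The 12 libraries each held RNA of 100 sorted cells. The authors mapped reads to GRCm38 (mm10) and deposited RPKM per feature. Their methods name CLC Genomics Workbench, their reporting summary HISAT2 and featureCounts, and the submitters' processing notes name edgeR, which the authors used for their statistics. Whole reads were recovered for 99.8% of 17735 features above 0 (tolerance 0.002 reads), and PCR copies are not marked, so depth covers counting error only.

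Numbered copies were summed, and limma 3.58.1 (R 4.3.3) was fitted to log2(RPKM + 0.1) with 4 group means and a trended variance, with Benjamini-Hochberg adjustment, after tests on simulated data. RPKM are not counts, so limma on the log scale was the main test. Positions came from GENCODE M21 (GRCm38). Tables used pandas 2.3.3 on Python 3.11.15, and figures matplotlib 3.10.9.

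The genes, lists and alternatives were chosen with earlier results of these data known. Named are the 8 genes, of each of 7 lists the 3 genes with the lowest p between populations and the 1 with the lowest p between treatments, the 5 genes most like the 8, Mki67 and sort genes. Further called list genes were named after their values were seen. Some genes of the lists are not reported here and were left out of the counts over the lists. Same-numbered IMDP and IMSP libraries deviated together (r = 0.43, 0.65 and 0.46), and those of DP and SP did not (-0.19, -0.30 and -0.10). The replicate number comes from the sample titles and library numbers from their descriptions.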

Additional observations from a re-analysis of the deposited data

How the results depend on the processing

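The counts of called cholesterol genes stayed at 0 in all comparisons under the other pseudocounts, filters (without a filter Fdft1 also entered) and group choices, with numbered copies kept apart, under limma-voom and with either block, of which the library-number pairs enter the treatment difference as pair means. Exceptions were scalings to the same median (1 gene between populations, Cyp51, and 1 with imatinib, Hmgcs1) and the same sum (1 in IMDP against IMSP and 1 between populations, Cyp51 in both, and 2 with imatinib, Hmgcs1 and Sqle). Leaving out 1 library gave 0 to 1 with imatinib, the 1 without IMDP replicate 2. The list genes called between populations (14) became 31 with library-number pairs as a block and 5 to 21 without 1 library, the lowest without IMSP replicate 1. Those called with imatinib (1) became 0 without a filter and on pair means, 2 under the same median, 4 under the same sum and 0 to 2 without 1 library.

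Directions reversed as follows. Under the same median, population values became 0.086 (Hmgcs1), 0.15 (Sqle), 0.080 (Acat2) and 0.024 (Mbtps1), and the interaction of Hmgcs1 0.21. Under the same sum they became 0.17, 0.24, 0.17 and 0.11, the interaction of Hmgcs1 0.32, Hmgcs1 in DP against SP 0.012 and Idi1 with imatinib 0.014. With a pseudocount of 1, Lss in IMSP against SP became 0.0066.

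Leaving out 1 library turned 8 values to the other side of 0 in at least 1 fit, each uncalled. Ranges were -0.16 to 0.028 (Hmgcs1, DP against SP), -0.26 to 0.30 (Lss, IMSP against SP), -0.13 to 0.027 (Hmgcs1, populations), -0.051 to 0.087 (Sqle, populations), -0.21 to 0.031 (Acat2, populations), -0.32 to 0.13 (Idi1, imatinib), -0.061 to 0.22 (Lss, imatinib) and -0.15 to 0.17 (Hmgcs1, interaction).

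The replicate number pairs IMDP with IMSP libraries only. The replicate block changed no call on the 8 genes (0 of 7 in each comparison), and with it 59 genes were called with imatinib against 86 without. Over all genes, calls went from 2581 in IMDP against IMSP to 1587 under the same median (share higher 9.26% and 40.8%) and 1583 under the same sum (61.0%), and with pairs as a block from 228 to 980 (DP against SP), 2581 to 4446 and 2648 to 4721 (populations). With imatinib 86 calls (29.1% higher) became 162 (40.7%) and 246 (73.2%) under these scalings and 0 on pair means, and in IMDP against DP 37 (8.11%) became 2 (0%) and 14 (85.7%). With 3 libraries a group and 52 to 468 reads behind most of these values, a missed threshold does not show equal levels.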
